A study of Mus musculus with 6 samples.

Results

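The 10 genes described here are the 5 members of the Slc13 family (Slc13a1 to Slc13a5), 3 anion exchangers of the Slc26 family (Slc26a1, Slc26a2 and Slc26a6), and the proximal acid-base transporters Slc4a4 and Slc9a3. They were taken by symbol from both deposited count tables, and all 10 were found among 24422 genes. Total kidney RNA was sequenced from 3 wild type C57BL/6 pups whose dams ate iron-sufficient chow (control, 220 ppm iron) and 3 whose dams ate iron-deficient chow (FeD, 2 to 6 ppm iron), all labelled as postnatal day 15. Per the labels, dams were 8 weeks old and stayed on their diet for 1 month before mating, through pregnancy and until the kidneys were taken. None of the 6 pups carried an engineered allele. The litter of each pup is not given in the sources used here, so litter and diet cannot be told apart.

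Cells of the proximal tubule recover filtered sulfate, citrate, succinate and oxoglutarate by sodium-coupled entry across the brush border, followed by metabolism or by exchange across the basolateral membrane. Slc13a1 (NaS1) carries sulfate and Slc13a2 (NaDC1) carries dicarboxylates and citrate across the brush border. Slc13a3 (NaDC3) is the basolateral, high-affinity dicarboxylate carrier, which supplies the oxoglutarate that organic anion transporters exchange for their substrates. Slc26a1 (Sat1) releases sulfate across the basolateral membrane in exchange for bicarbonate or oxalate, and Slc26a6 exchanges chloride for oxalate or formate at the brush border. Slc26a2 is a sulfate transporter best known from cartilage, and Slc13a4 and Slc13a5 are sulfate and citrate carriers best known outside the kidney. Slc9a3 (NHE3) exports protons across the brush border, and Slc4a4 (NBCe1) returns sodium and bicarbonate to the blood. Slc9a3 and Slc4a4 carry neither sulfate nor dicarboxylates, and accompany the other 8 genes as the acid-base arm of the same cell.

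The 6 libraries held between 13732173 and 20853293 counted reads, and the 10 genes together drew 0.148% to 0.157% of the reads of control kidneys and 0.110% to 0.132% of those of FeD kidneys. The proximal markers Lrp2, Cubn and Aqp1 were abundant in every kidney. Of 5 red cell markers, 4 globin genes were at 0 in every kidney, and these zeros give no measure of blood. The other red cell marker, Alas2, ranged from 336 to 761 in control and from 92.4 to 413 in FeD kidneys and did not pass. FeD kidney 2 stood apart in adrenal genes, with 1828 reads of Cyp11b1 against at most 6 in any other kidney. Cyp11a1 had 762 reads in FeD kidney 2, 128 in control kidney 1 and 4 or 5 in each other kidney. Without FeD kidney 2 the count of members called lower was also 3. A level below is a normalized count, the count scaled by edgeR's TMM factors to a common library size, unless another unit is named. A difference is edgeR's log2 fold change of FeD over control. Its standard error (SE) was derived from that change and the F statistic of edgeR's test. A gene was called when its adjusted P was under 0.05 and its change was at least 2-fold.

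In FeD kidneys the basolateral dicarboxylate carrier Slc13a3 fell 4.39-fold, the basolateral sulfate exchanger Slc26a1 and the sparse sulfate carrier Slc13a4 fell by 1.62 and 1.95 on the log2 scale, and the basolateral bicarbonate carrier Slc4a4 rose 1.48-fold. The brush border carrier Slc13a1 rose by 0.36 on the log2 scale with overlapping groups, and the brush border carriers Slc13a2 and Slc9a3 did not pass the test. The brush border exchanger Slc26a6 fell 1.93-fold, short of the 2-fold threshold, with separate groups. Of the 9 genes with enough reads to test, 3 were called lower and 0 higher, and edgeR called 5.69% of all 15145 genes tested lower and 4.34% higher. When edgeR tested whether a change exceeded 2-fold, 1 of the 3, Slc13a3, passed. At an adjusted P under 0.05 alone, 4 of the 9 were lower (Slc13a3, Slc13a4, Slc26a1 and Slc26a6) and 3 were higher (Slc13a1, Slc26a2 and Slc4a4), against 23.3% of all tested genes lower and 22.4% higher. The control and FeD kidneys did not overlap for 6 of the 9, against 58.1% of all tested genes. The median log2 fold change of the 9 was -0.53, and that of all tested genes was -0.0018. RNA of a whole kidney was counted, so fewer cells of a type and less RNA per cell cannot be told apart.

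**Figure D1:**
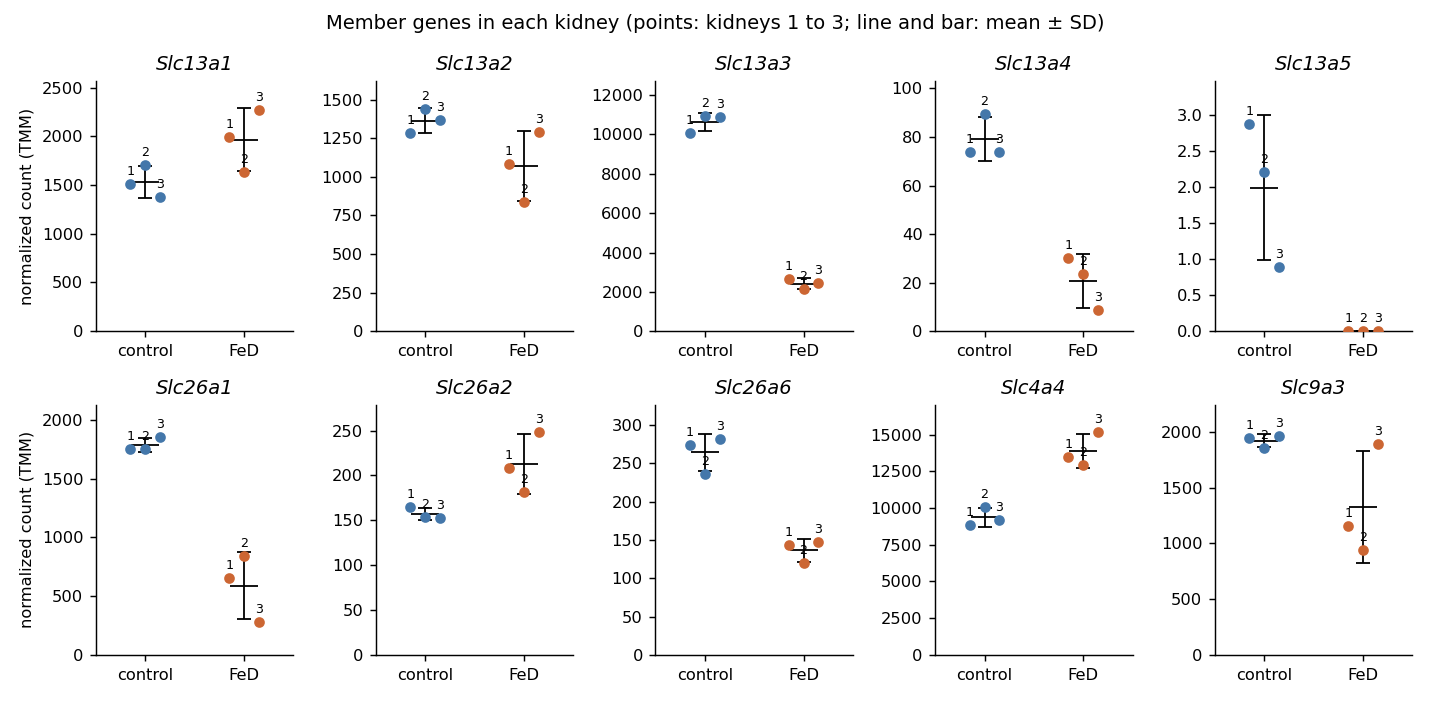
Normalized counts (vertical axes, each from 0) of the 10 transporter genes in the 3 control and 3 FeD kidneys, with numbered points for single kidneys and a line and bar for the mean ± SD. Slc13a3, Slc13a4, Slc26a1 and Slc26a6 lie lower in all 3 FeD kidneys, Slc4a4 and Slc26a2 lie higher, and the groups overlap for Slc13a1, Slc13a2 and Slc9a3.

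Among the dicarboxylate carriers, Slc13a3 (chr2:165230528-165298730, minus strand, NCBIM37) was counted at 10093, 10916 and 10909 in control kidneys 1 to 3 and at 2656, 2149 and 2470.5 in FeD kidneys 1 to 3. The kidneys of each group lay close together and far from those of the other group. From control to FeD the mean fell from 10639 ± 473 to 2425 ± 256 (SD, n = 3), with a log2 difference of -2.13 (SE 0.09, adjusted P = 8.9e-06 by edgeR). Only 1.22% of all tested genes had a lower log2 fold change.

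Slc13a2 (chr11:78210589-78235719, minus strand), which works at the opposite face of the same cell, gave a different picture. It was counted at 1282, 1440.4 and 1367 in the control kidneys and at 1079.8, 837 and 1291 in the FeD kidneys. FeD kidneys 1 and 2 lay below every control kidney and FeD kidney 3 lay among them. The mean was 1363 ± 79.4 in control and 1069.5 ± 227 in FeD kidneys, a log2 fold change of -0.35 (SE 0.14) that did not pass (adjusted P = 0.074 by edgeR). Without FeD kidney 3 the log2 fold change was -0.49 (adjusted P = 0.0072 by edgeR). Without FeD kidney 2, which held the most adrenal transcripts, it was -0.18 (adjusted P = 0.16). An annotated antisense gene, Slc13a2os, covers 26.2% of the exon bases of Slc13a2 and was counted at 76.6 to 126. Whether the authors counted by strand is not given in the sources used here, so reads from the shared bases cannot be told apart.

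Slc13a5, the citrate carrier, had 3, 2 and 1 reads in the control kidneys and 0 in each FeD kidney. These counts are at or under the limit of 3 reads that a count of 0 allows, and no difference was detectable at this depth. It was the single member that the filter on low counts removed.

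The level of Slc13a3 relative to Slc13a2 changed in every FeD kidney. In RPKM, counts scaled to library size and to exon length, Slc13a3 stood 3.64, 3.51 and 3.69 times above Slc13a2 in control kidneys 1 to 3. The same ratio was 1.14, 1.19 and 0.885 in FeD kidneys 1 to 3. The basolateral carrier was therefore far the more abundant transcript of the pair in control kidneys and about level with the brush border carrier in FeD kidneys. This pair and the other ratios below were picked after the values were seen and are given without a test.

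Among the sulfate carriers, the basolateral exchanger Slc26a1 (chr5:109098897-109104588, minus strand) was counted at 1755, 1755 and 1858 in the control kidneys and at 651, 840.1 and 278 in the FeD kidneys. Control kidneys differed little, and FeD kidneys differed 3.02-fold between the highest and the lowest, with FeD kidney 3 the lowest. The mean fell from 1789 ± 59.3 to 589.6 ± 286, with a log2 difference of -1.62 (SE 0.32, adjusted P = 0.0042 by edgeR). Leaving out FeD kidney 3 gave -1.26, and leaving out FeD kidney 2, which held the most adrenal transcripts, gave -1.94. Slc26a1 lies within Idua, a lysosomal hydrolase gene on the opposite strand, but shares only 141 exon bases with it, and Idua had a log2 fold change of -0.01 (adjusted P = 0.91).

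Slc13a1 (chr6:24038283-24118092, minus strand), the brush border entry step for sulfate, was counted at 1515, 1706 and 1382 in the control kidneys and at 1993, 1632 and 2275 in the FeD kidneys. FeD kidneys 1 and 3 lay above every control kidney and FeD kidney 2 lay below control kidney 2. The mean was 1534 ± 163 in control and 1966 ± 322 in FeD kidneys, a log2 fold change of 0.36 (SE 0.12, adjusted P = 0.044 by edgeR). The adjusted P was no longer under 0.05 when control kidney 1, control kidney 3, FeD kidney 1 or FeD kidney 3 was left out, and lay between 0.083 and 0.16.

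Slc26a1 and Slc13a1 are the exit and entry steps of the same route, and their relative level changed. In RPKM, Slc26a1 stood at 0.714, 0.634 and 0.828 of Slc13a1 in control kidneys 1 to 3 and at 0.201, 0.317 and 0.0753 in FeD kidneys 1 to 3. The lowest control ratio was above the highest FeD ratio.

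The remaining sulfate carriers were scarce. Slc13a4 (chr6:35217957-35258131, minus strand) was counted at 73.8, 89.6 and 73.8 in the control kidneys and at 30.0, 23.4 and 8.63 in the FeD kidneys. Every FeD kidney lay below every control kidney, and FeD kidney 3, at 10 reads, was the lowest. The mean fell from 79.1 ± 9.11 to 20.7 ± 10.9, with a log2 difference of -1.95 (SE 0.38, adjusted P = 0.0042 by edgeR). The FeD kidneys held 30, 18 and 10 reads of Slc13a4, which makes this the least precise of the 3 called members.

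Slc26a2 (chromosome 18, minus strand) was counted at 165, 154 and 152 in the control kidneys and at 208, 182 and 249 in the FeD kidneys, all FeD kidneys above all controls. Its mean rose from 157 ± 6.93 to 213 ± 33.7, with a log2 difference of 0.44 (SE 0.14, adjusted P = 0.032 by edgeR), under the 2-fold threshold. The adjusted P lay between 0.058 and 0.11 when any single kidney other than FeD kidney 2 was left out.

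The oxalate exchanger Slc26a6 (chr9:108756368-108764472, plus strand) was counted at 274, 237 and 282 in the control kidneys and at 143, 119 and 148 in the FeD kidneys. All FeD kidneys lay well below all controls with a like spread in both groups. The mean fell from 264 ± 24.2 to 137 ± 15.1, which is 1.93-fold (log2 fold change -0.95, SE 0.13, adjusted P = 0.00081 by edgeR). Slc26a6 had an adjusted P under 0.05 under all 13 alternatives to the fit and crossed the 2-fold threshold only without control kidney 2, at -1.02.

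In the acid-base pair, Slc4a4 (chr5:89315843-89668678, plus strand) was counted at 8838, 10041.5 and 9197 in the control kidneys and at 13493, 12935 and 15165 in the FeD kidneys. The lowest FeD kidney lay above the highest control. The mean rose from 9359 ± 618 to 13864 ± 1161, with a log2 difference of 0.57 (SE 0.09, adjusted P = 0.0015 by edgeR). Its log2 fold change stayed between 0.51 and 0.64 under all 13 alternatives, each with an adjusted P under 0.05, and 88.0% of all tested genes had a lower value.

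Slc9a3 (chr13:74258963-74303512, plus strand) was counted at 1948, 1856 and 1967 in the control kidneys and at 1153, 939 and 1895 in the FeD kidneys. FeD kidneys 1 and 2 lay far below the controls and FeD kidney 3 lay among them. The mean was 1924 ± 59.2 in control and 1329 ± 502 in FeD kidneys, a log2 fold change of -0.53 (SE 0.22) that did not pass (adjusted P = 0.080 by edgeR). This outcome depended on the kidneys kept and on the model. Without FeD kidney 3 the log2 fold change was -0.86 (adjusted P = 0.00017 by edgeR). Without FeD kidney 2, which held the most adrenal transcripts, it was -0.31 (adjusted P = 0.20), and without FeD kidney 1 it was -0.41 (adjusted P = 0.24). With all kidneys and the replicate number as a block it was -0.59 (adjusted P = 0.024). In RPKM, Slc4a4 stood at 1.04, 1.25 and 1.08 times Slc9a3 in control kidneys 1 to 3 and at 2.69, 3.17 and 1.84 times Slc9a3 in FeD kidneys 1 to 3, with no overlap.

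**Figure D2:**
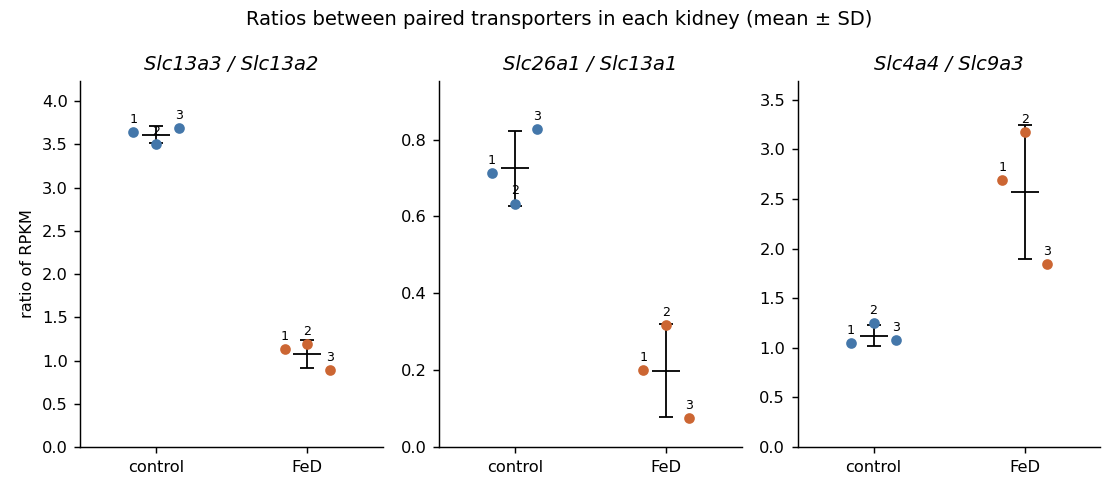
Ratios of RPKM (vertical axes, each from 0) between 3 pairs of transporters in each kidney, with numbered points for kidneys and the mean ± SD. The ratios Slc13a3 to Slc13a2 and Slc26a1 to Slc13a1 lie lower in all 3 FeD kidneys, and the ratio Slc4a4 to Slc9a3 lies higher.

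Spread between FeD kidneys differed from gene to gene. The coefficient of variation over the 3 FeD kidneys was 52.9% for Slc13a4, 48.5% for Slc26a1 and 37.8% for Slc9a3, and 10.6% for Slc13a3. FeD kidney 3 was the highest of the FeD kidneys for Slc13a1, Slc13a2, Slc26a2, Slc26a6, Slc4a4 and Slc9a3, and the lowest for Slc13a4 and Slc26a1. FeD kidney 3 thus lay among the controls in Slc13a2 and Slc9a3 and farthest from them in Slc13a4 and Slc26a1.

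**Figure D3:**
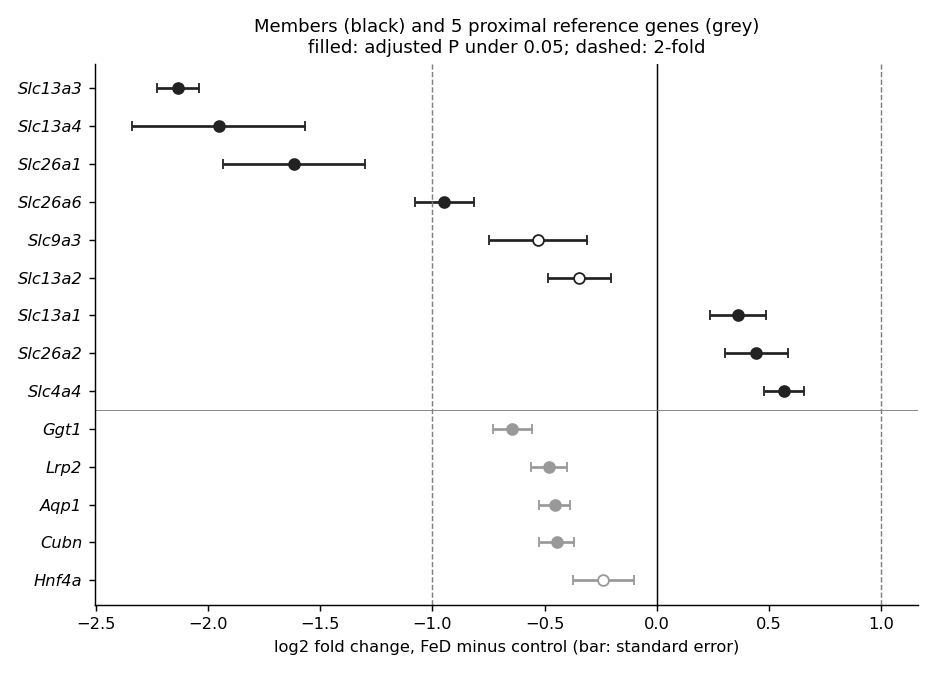
Log2 fold change of FeD over control (horizontal axis, bars are standard errors) for the 9 tested transporter genes in black and 5 proximal reference genes in grey, filled where the adjusted P was under 0.05 and with dashed lines at 2-fold. Slc13a3, Slc13a4 and Slc26a1 lie beyond the lower dashed line, the reference genes lie between -0.64 and -0.24, and Slc13a1, Slc26a2 and Slc4a4 lie above 0.

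The order of transcript levels changed between the diets. In RPKM, control kidneys had Slc13a3 first at 114 ± 5.08, followed by Slc4a4 at 48.5 ± 3.20, Slc9a3 at 43.3 ± 1.33, Slc13a1 at 34.4 ± 3.66, Slc13a2 at 31.6 ± 1.84 and Slc26a1 at 24.7 ± 0.821. Below these came Slc26a6 at 7.11 ± 0.651, Slc26a2 at 1.04 ± 0.0460, Slc13a4 at 0.978 ± 0.113 and Slc13a5 at 0.0315 ± 0.0160. Slc13a1 and Slc13a2, and Slc26a2 and Slc13a4, overlapped in control kidneys and could not be ordered. All other neighbours in that order were separate.

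In FeD kidneys Slc4a4 came first at 71.8 ± 6.01 RPKM, followed by Slc13a1 at 44.1 ± 7.23, Slc9a3 at 29.9 ± 11.3, Slc13a3 at 26.0 ± 2.75 and Slc13a2 at 24.8 ± 5.27. From Slc13a1 to Slc13a2 each of these overlapped the next, so Slc13a3, first and separate in control kidneys, could not be told from Slc9a3 or Slc13a2 in FeD kidneys. Slc26a1 at 8.15 ± 3.95 overlapped Slc26a6 at 3.68 ± 0.406. Slc26a2 at 1.41 ± 0.223 and Slc13a4 at 0.256 ± 0.135 were separate. RPKM rests on the summed exon length in an annotation of the same build, which may not be the one the authors counted with, and it cancels in any comparison of a gene with itself.

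Proximal tubule genes as a group were lower in FeD kidneys, and this is given beside the transporters because most of them belong to that segment. Over a list of 14 proximal markers, 6 were called lower and 0 higher, and the summed level ranged from 187746 to 201494 in control and from 82346 to 91259.6 in FeD kidneys. Within it, 5 reference genes that mark the segment without sharing the carriers' function (Lrp2, Cubn, Aqp1, Hnf4a and Ggt1) had a mean log2 change of -0.46. Markers of other cells moved as well. Of 3 markers each, 2 of the distal convoluted tubule were called lower (median -1.56) and 2 of principal cells higher (Aqp2 at 1.13), and of 4 markers each, 2 of intercalated cells were called lower and 2 of liver higher, the liver sum ranging from 1551 to 1665 in control and from 4814 to 5462 in FeD kidneys, with Alb itself at a mean of 15.1 and 14.7. Of stroma and endothelium 1 marker each was called lower, of macrophages 1 higher, and of the thick ascending limb and podocytes 0. At an adjusted P under 0.05 alone, intercalated cells had 2 lower and 1 higher, and stroma had 2 lower and 1 higher (Pdgfrb, 0.59). Macrophages had 1 lower and 2 higher. The macrophage sum ranged from 1754 to 1822 in control and from 1541 to 1681 in FeD kidneys. Of all tested genes, 5.69% were called lower and 4.34% higher. The part of any of these in the transporters' changes was not tested.

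Against the mean of those 5 genes in the same kidney, Slc13a3 was lower by a log2 difference of -1.68, Slc13a4 by -1.62, Slc26a1 by -1.29 and Slc26a6 by -0.49. The same measure was higher by 0.81 for Slc13a1, 0.88 for Slc26a2 and 1.02 for Slc4a4. Among the 9 genes compared, these 7 separated control from FeD kidneys without overlap, and each gave P = 0.1 in an exact two-sided permutation test over kidneys, the smallest P that 3 against 3 can give. Slc13a2 and Slc9a3 differed by 0.09 and -0.14 with overlapping kidneys (P = 0.7, exact permutation test), so the direction of neither relative to the segment was resolved.

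The choice of reference mattered. Against all 14 proximal markers, which include strongly decreased transporters, the values of all 9 genes moved upward, to -0.75 for Slc13a3 and 1.95 for Slc4a4 at the ends. Slc26a6 and Slc9a3 changed sign, to 0.44 and 0.79, and Slc13a2 moved to 1.02. The mean difference stayed lower for Slc13a3, Slc13a4 and Slc26a1, and higher for Slc13a1, Slc26a2 and Slc4a4, with either reference. Against the 14 markers it was only -0.69 for Slc13a4 and -0.36 for Slc26a1. The SD of their FeD kidneys against the 5 genes was 0.87 and 0.79. Overlap between groups was not examined with the 14 markers.

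**Figure D4:**
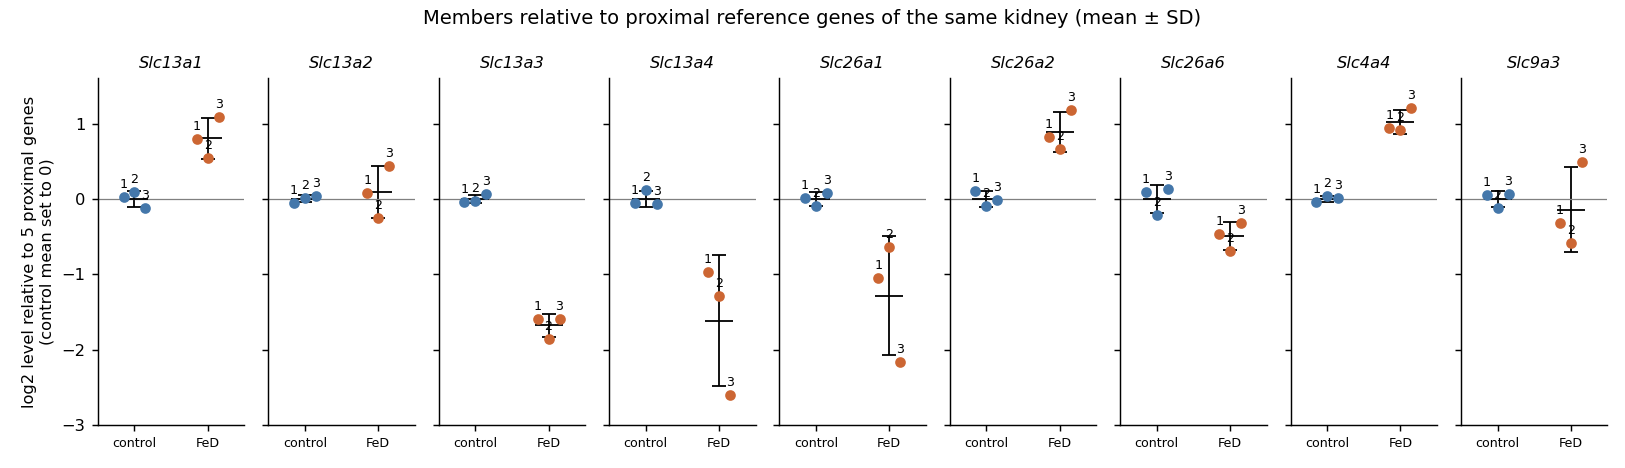
Log2 level of each tested transporter minus the mean log2 level of 5 proximal genes of the same kidney (vertical axis, control mean set to 0), with numbered kidneys and the mean ± SD. Slc13a3, Slc13a4, Slc26a1 and Slc26a6 lie below 0 and Slc13a1, Slc26a2 and Slc4a4 above 0 in all 3 FeD kidneys, and Slc13a2 and Slc9a3 straddle it.

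Promoters are shown for Slc13a3 and Slc26a1, the most abundant members called lower, and for Slc4a4, the member with the largest rise. The bases before the RefSeq start (table of build GRCm38.p6) were placed on NCBIM37 by exact match and are written in the gene's sense. Entries of 8 of the 10 genes were used. Slc13a1 had no entry, and Slc26a2 was not looked up. Capitals mark matches to the motifs searched. Bases inside annotated exons are left out.
Slc13a3: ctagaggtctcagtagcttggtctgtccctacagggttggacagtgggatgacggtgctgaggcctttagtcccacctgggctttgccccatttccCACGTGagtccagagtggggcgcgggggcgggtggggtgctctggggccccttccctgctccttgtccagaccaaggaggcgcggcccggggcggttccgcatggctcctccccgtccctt
Slc26a1: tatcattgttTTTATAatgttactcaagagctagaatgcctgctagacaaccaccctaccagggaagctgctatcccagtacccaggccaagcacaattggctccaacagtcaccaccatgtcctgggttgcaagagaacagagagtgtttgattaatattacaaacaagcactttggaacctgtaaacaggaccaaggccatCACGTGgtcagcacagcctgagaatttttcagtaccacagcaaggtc
Slc4a4: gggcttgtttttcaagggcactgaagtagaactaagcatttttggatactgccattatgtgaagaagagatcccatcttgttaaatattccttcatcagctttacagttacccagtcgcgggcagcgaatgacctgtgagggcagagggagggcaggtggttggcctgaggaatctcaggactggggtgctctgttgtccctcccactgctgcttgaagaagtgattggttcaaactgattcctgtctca
The Slc13a3 stretch is chr2:165298731-165298947 on the minus strand, the Slc26a1 stretch, before the downstream of its 2 listed starts, is chr5:109103816-109104065 on the minus strand, and the Slc4a4 stretch, before the downstream of its 2 listed starts, is chr5:89456741-89456990 on the plus strand.

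The motifs searched on both strands were ACGTG, the core letters bound by hypoxia-inducible factors, and GCGTG, their second form. The other motifs were TATAAA, the letters of the TATA box, and CAAAGTCCA, an HNF4 site. Slc13a3 held ACGTG on both strands, which together read CACGTG from 154 to 149 bases before the start. Slc26a1 held the same CACGTG from 47 to 42 bases before its downstream start, and TATAAA on the antisense strand. The window before the downstream start of Slc4a4 matched none of the letters, and that before its upstream start, not printed, held GCGTG on the antisense strand. Slc9a3 also held CACGTG, from 87 to 82 bases before its start, and GCGTG. Slc13a2 held TATAAA on the antisense strand. The windows of Slc13a4, Slc13a5 and Slc26a6, and that before the upstream start of Slc26a1, not printed, held no match. Of 32851 promoters in the table, 16.6% held ACGTG, 28.2% GCGTG, 12.4% TATAAA and 0.384% the HNF4 site, and 6.02% held CACGTG, which was counted after the matches were seen. These matches describe letters and no binding was measured.

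Genes that handle citrate and dicarboxylates mostly shared the direction of Slc13a3. Over all tested genes, 5.69% were called lower and 4.34% higher. At an adjusted P under 0.05 alone the shares were 23.3% and 22.4%, and both pairs of shares also stand beside the lists below. Of 18 citrate and dicarboxylate genes tested, 5 were called lower and 0 higher. At an adjusted P under 0.05 alone 14 were lower and 1 was higher, with a median log2 fold change of -0.79. The organic anion exchangers that use the dicarboxylate gradient were among the lower ones. Slc22a8 (OAT3) fell from 8983 ± 377 to 2154 ± 357 (log2 fold change -2.06, SE 0.12) and Slc22a6 (OAT1) from 3460.4 ± 161 to 1630 ± 743 (-1.08, SE 0.27), and the log2 fold change of Slc22a7 (OAT2) was -3.97. Slc22a6 had an adjusted P of 0.054 without FeD kidney 1 and a log2 fold change of -0.79 without FeD kidney 2, and the count called lower was 4 without either. Slc22a6 and Slc22a7 also stand among the 14 proximal markers. Of the mitochondrial dicarboxylate carriers, the log2 fold change was -2.02 for Slc25a21 and -0.93 for Slc25a10. Sucnr1, the receptor for extracellular succinate, was the gene that rose, from 339 ± 26.1 to 653 ± 27.9 (0.94, SE 0.09).

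Genes of sulfate use moved in both directions, as did tested genes at large. Of 21 tested, 2 were called higher and 0 lower. At an adjusted P alone 4 were higher and 8 lower, with a median of -0.23, against 22.4% higher and 23.3% lower of all tested genes. Suox, which makes sulfate from sulfite (log2 fold change -0.91), Sqrdl, which oxidises sulfide (-0.76), and Papss2, which turns sulfate into the activated donor (-0.61), all fell. The cytosolic sulfotransferases Sult1b1 and Sult1d1, which spend that donor, rose by 1.93 and 1.13, and Slc35b3, which carries it into the Golgi, rose by 0.72. Sult1d1 was abundant, at 9247 ± 634 in control and 20184 ± 816 in FeD kidneys.

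Partners of Slc9a3 and Slc4a4 were likewise divided. Of 16 tested, 3 were called lower and 0 higher, and at an adjusted P alone 8 were lower and 5 higher, with a median of -0.29. The parathyroid hormone receptor Pth1r (log2 fold change -1.57), the brush border scaffold Pdzk1 (-1.24), the membrane carbonic anhydrases Car14 (-1.17) and Car4 (-0.38), and the scaffold Slc9a3r1 (-0.50) fell. The kinase Sgk1, the Slc9a3 cofactor Chp1 and the angiotensin receptor Agtr1a rose by 0.89, 0.69 and 0.49.

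In the other Slc26, Slc4 and Slc9 genes, 4 of 22 tested were called lower and 2 higher. Those called lower included Slc26a4 (-1.67), Slc26a7 (-1.25) and Slc4a1 (-1.42), anion exchangers of intercalated cells, together with Slc4a11 (-1.80). The count lower was 3 without control kidney 1, control kidney 2, FeD kidney 1 or FeD kidney 2, and Slc26a7 had an adjusted P of 0.079, 0.057 and 0.077 without the first 3 of these and a log2 fold change of -0.997 without the last. The bicarbonate carrier Slc4a7 rose by 0.69 and the sulfate transporter Slc26a11 by 0.36, the latter with an adjusted P of up to 0.071 when a kidney was left out. The pair called higher, Slc26a8 (1.36) and Slc4a10 (1.41), were too scarce for the rule for named genes and are named although their values had been seen. Among 7 tested enzymes of oxalate and glyoxylate, 2 were called lower, Dao (-1.20) and Prodh2 (-1.12), and 0 higher, and Prodh2 lost an adjusted P under 0.05 in 5 of 13 alternatives.

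Of 13 transcription factors named in the regulation of these transporters or of the proximal tubule, 1 was called lower and 0 higher. That gene was Esrra, a regulator of mitochondrial genes, at a log2 fold change of -1.13 (SE 0.11). At an adjusted P alone, 6 were lower, among them Thrb (-0.55), Nr1i2 (-0.54) and the vitamin D receptor Vdr (-0.24), and 4 were higher, among them Hnf4g (0.86), Maf (0.82) and Ppara (0.52). Vdr and Hnf4g each missed an adjusted P under 0.05 in 4 of 13 alternatives (up to 0.10 and 0.086), and Nr1i2 in 2 (up to 0.091). Hnf4a (-0.24, adjusted P = 0.19), a factor known to act on genes of the proximal tubule, did not pass.

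**Figure D5:**
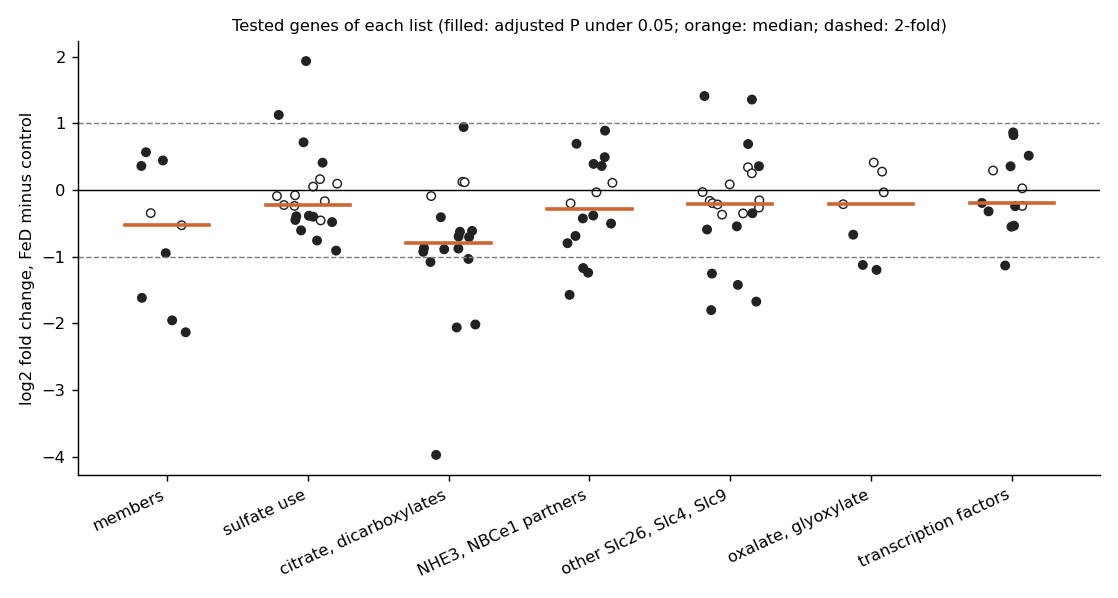
Log2 fold change of FeD over control (vertical axis) of each tested gene in the set of 9 transporters and in 6 lists of related genes, filled where the adjusted P was under 0.05, with orange lines at the median and dashed lines at 2-fold. Citrate and dicarboxylate genes have the lowest median, -0.79, and every other list has genes filled on both sides of 0 except oxalate and glyoxylate enzymes, which have them only below.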

How the data were processed

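Whole kidneys of 3 control and 3 FeD pups were measured by RNA-seq. Per the labels and methods, the authors selected poly(A) RNA, sequenced single-end 100 base reads, trimmed them (Trimmomatic), aligned them to mm9 (TopHat2 2.0.11), kept unique alignments and deposited HTSeq raw counts per gene, not normalized or pooled. Annotation and strand setting are not given in the sources used here. Total counts were 13732173 to 20853293 per kidney. Counts were tested with edgeR 4.0.16 (R 4.3.3): filterByExpr, TMM, quasi-likelihood test, Benjamini-Hochberg adjustment over 15145 genes. The coefficient of variation between kidneys was 0.128. Groups came from the labels; separate biological replicates are stated, and counts of libraries of a group differed beyond sampling noise. On simulated counts with 200 genes changed by 2 on the log2 scale, edgeR recovered 200 with 0 false calls. Every simulated gene had the same coefficient of variation between kidneys, and scarce genes were not among those changed. The simulation therefore does not cover smaller changes, scarce genes or genes with a wider spread.

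RPKM used exon lengths of GENCODE on NCBIM37. Relative levels used log2 of normalized count plus 0.5. Alternatives were DESeq2 1.42.0, limma-voom 3.58.1, other scaling, filters, a replicate block, a test against 2-fold and leaving out each kidney. Named genes are all 10 members, up to 3 per direction and list by size of change (adjusted P under 0.05, mean at least 50), genes listed by name with their values whatever these were, and defining markers. Members and lists were chosen with earlier results of these data known. A gene of the lists is not reported here and was left out of them. The label of maternal diet duration, 1 month before mating, was used.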

Additional observations from a re-analysis of the deposited data

How the results depend on the processing

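Slc13a3, Slc13a4, Slc26a1, Slc26a6 and Slc4a4 kept their direction and an adjusted P under 0.05 under all 13 alternatives, with log2 fold changes of -2.19 to -2.03, -2.35 to -1.54, -1.94 to -1.26, -1.02 to -0.84 and 0.51 to 0.64. The count of members called lower was 3 and was 1 (Slc13a3) when edgeR tested against a fold change of 2, which is stricter by construction (225 of all genes higher and 286 lower, against 657 and 862), and 3 to 4 with any kidney left out. Members higher at an adjusted P alone numbered 3, and 1 to 3 with a kidney left out. With the replicate number as a block, 1 member was higher and 5 lower at an adjusted P alone, and 655 and 879 of all genes were called higher and lower. Kidneys of the same number did not deviate together (r = -0.31, 0.00046 and -0.17), and those of different numbers gave r of -0.051 to 0.31. These values gave no sign of pairing by number, and a shared litter or preparation was not tested. Slc13a1 and Slc26a2 each lost an adjusted P under 0.05 under 6 of 13 alternatives, and the cause was not tested: 0.35 for Slc13a1 without the filter on low counts, 0.35 and 0.43 for Slc13a1 and Slc26a2 with the block, and leave-outs of single kidneys, which spanned 0.26 to 0.50 for Slc13a1 and 0.33 to 0.56 for Slc26a2. Slc13a2 (-0.49 to -0.18 over the leave-outs) passed without FeD kidney 3, and Slc9a3 (-0.86 to -0.31) passed without FeD kidney 3 and with the block (-0.59). With all 14 proximal markers as reference the relative log2 differences were 1.74, 1.02, -0.75, -0.69, -0.36, 1.81, 0.44, 1.95 and 0.79 for Slc13a1, Slc13a2, Slc13a3, Slc13a4, Slc26a1, Slc26a2, Slc26a6, Slc4a4 and Slc9a3. Against a fold change of 2 the lists of related genes held fewer calls by construction: 1 higher for sulfate use, 3 lower for citrate and dicarboxylates, 1 lower for Slc9a3 and Slc4a4 partners, 0 higher and 2 lower for the other Slc families, and 0 for oxalate enzymes and transcription factors. Oxalate enzymes had 1 called higher and 1 lower with DESeq2, 1 higher without the filter, and 1 to 2 lower with a kidney left out. With a kidney left out, 4 to 5 citrate and dicarboxylate genes and 3 to 4 of the other Slc families were lower. Leaving out a kidney gave 0 to 1 where sulfate use had 0 lower and partners and transcription factors had 0 higher. Among defining markers that did not pass, 3 changed sign when a kidney was left out: Nphs1 (-0.35 to 0.015), Pecam1 (-0.018 to 0.23) and Alb (-1.40 to 0.41). Leaving out globin and mitochondrial genes removed 10 globin genes, all at 0 in every kidney, so that the fit was the same and adds no check. Depth limits Slc13a5 and Slc13a4, and with 3 kidneys a group an exact test of 1 value cannot go below P = 0.1. P-values measure the spread between these kidneys only.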
